A study of Homo sapiens with 15 samples.

Results

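Long non-coding RNA genes were followed across 15 expression arrays of the human ovarian cancer line A2780 and of its cisplatin-resistant derivative CP70, untreated or after treatment with decitabine, PXD101 or both. The set held 97 genes of the 19775 that the arrays measured through a probe set with a single gene symbol. They were chosen by name and by level: a symbol that starts with LINC or ends in -AS and a number, read on the gene's brightest probe set, with a mean of at least 7 on the log2 scale in 1 or more of the 5 groups. A log2 value rises by 1 for each doubling of the signal. Of 1615 genes with such a name, 1518 stayed under 7 in every group. DLX6-AS1 and the antisense genes of the HOX clusters, 7 genes of which 2 reached 7, were left out by name. The set holds 31 LINC genes and 66 antisense genes, and RefSeq lists all 97 as long non-coding RNA.

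The level of 7 was itself a measured value, so levels are given as a description and were not tested. The rule leans towards CP70, since 4 of the 5 groups are CP70 cells. It was met in all 5 groups by 53 genes. Another 16 genes met it in the 4 CP70 groups and not in A2780, 6 in untreated CP70 alone and 5 in A2780 alone, so those genes had to be higher on the side that let them pass. The genes nearest the limit were LINC03068 (highest group mean 7.01), PTOV1-AS2 (7.01) and DLGAP1-AS2 (7.02) inside it, and PSMA3-AS1 (6.98), ARRDC1-AS1 (6.98) and DHX9-AS1 (6.98) outside it.

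LINC genes (long intergenic non-coding RNA) lie between protein-coding genes, whereas an -AS gene is named after the gene on whose opposite strand it lies and often starts close to that gene's promoter. Such RNAs are transcribed, spliced and capped like messenger RNAs without coding for a protein. Some act on the chromatin or transcription of their neighbours, some bind proteins or microRNAs elsewhere in the cell, and for many no role is known. Decitabine is a cytidine analogue that is built into DNA and traps DNA methyltransferases, so that CG dinucleotides lose methylation as cells divide. PXD101 (belinostat) is a hydroxamate inhibitor of histone deacetylases.

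Each of the 5 groups had 3 arrays, which the submitters describe as biological triplicates. A2780 is sensitive to cisplatin and was untreated, and the other groups were CP70 cells. These were untreated, or had 48 h of decitabine at 0.1 µM (renewed after 24 h), or 48 h of PXD101 at the same concentration, or the decitabine course with PXD101 at 0.1 µM in its last 24 h. Treated cells grew for another 96 h without drug before RNA was taken, and PXD101 alone and PXD101 in the combination differed in exposure. The labels name no CP70 cells given vehicle, and a comparison of 1 sensitive with 1 resistant line cannot tell resistance apart from other differences between the lines. RNA was amplified before hybridisation, and in such bulk RNA fewer cells of a type and less RNA per cell cannot be told apart.

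Array medians over all probe sets lay between 5.00 and 5.06, and single values between 2.39 and 14.52. Untreated CP70 replicate 2 stood apart from its group: its correlation over the 97 genes was 0.979 to 0.986 with each PXD101 array, but 0.884 with CP70 replicate 1 and 0.918 with CP70 replicate 3. In 77 of the 97 genes it lay nearer the PXD101 mean than the mean of CP70 replicates 1 and 3. Counts of calls against untreated CP70 are therefore given with all 3 CP70 arrays, and again with replicate 2 as the only CP70 array or without it. Apart from the interaction of the drugs, the fits with fewer CP70 arrays have no share of all genes beside them. The signal at the 3' end of the actin control exceeded that at its 5' end by 0.63 to 0.86 log2 units on the CP70 arrays, by 0.34 to 0.38 on the A2780 arrays and by 0.34 to 0.79 on the treated arrays, and its part in the results was not tested. All 5 leukocyte markers stayed under 5.6 in every group. Of the ovarian and epithelial markers, PAX8 lay between 7.08 and 7.31, while WT1 (at most 3.68) and MUC16 (at most 4.04) were near the low end of the scale, the lower quartile of all gene values being 4.34. The keratins and EPCAM moved with the comparisons below. KRT18 and EPCAM were higher in CP70 than in A2780 by 1.84 and 0.88. KRT8, KRT18 and EPCAM, 3 of the 7 markers, were higher after decitabine by 1.37, 0.96 and 0.71 and in the combination against PXD101 by 1.499, 1.60 and 1.28. Of 5 fibroblast and endothelial markers, COL1A2 differed between the lines by -2.48 (11.1 in A2780), DCN by 3.43 (9.98 in CP70) and PDGFRB by -0.39, and COL1A2 differed by -0.72 after decitabine (adjusted p = 0.0452 by limma). The part of these markers in the results was not tested.

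**Figure D1:**
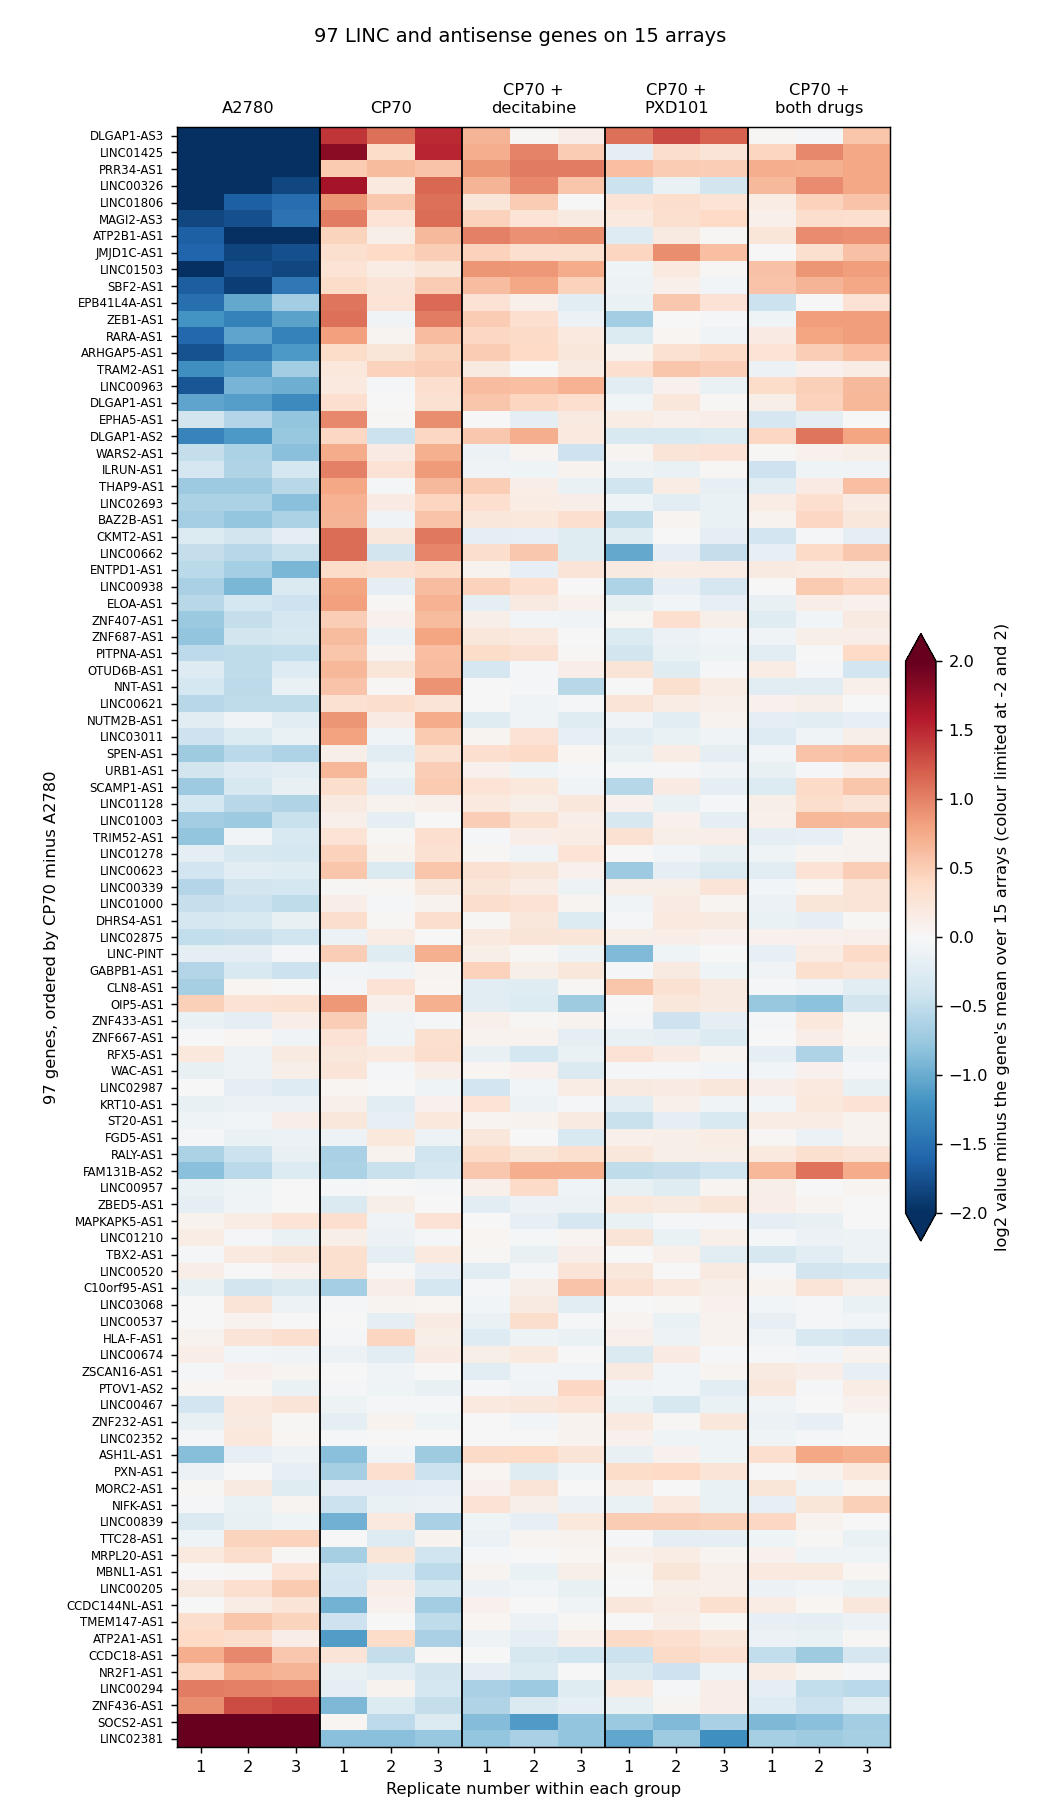
Values of the 97 genes (rows, ordered by the difference between CP70 and A2780) on the 15 arrays (columns, 3 replicates in each of 5 groups), as log2 value minus the gene's own mean over the 15 arrays, with red for higher and blue for lower. The largest contrast separates A2780 from the CP70 groups, and CP70 replicate 2 is paler than replicates 1 and 3 in many rows.

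The first comparison asked which of these RNAs differed between the resistant and the sensitive line. A gene is called higher or lower here when its difference has an adjusted p under 0.05, from limma fitted over all 15 arrays and all genes with Benjamini-Hochberg adjustment, and differences are given ± their standard error (SE). In untreated CP70, 48 genes were higher and 12 lower than in A2780, 60 of 97, while 31.2% of all genes were called, 16.1% higher and 15.2% lower. The median difference was 0.46 over the 97 genes and 0.01 over all genes. The level rule shapes this count. Among the 53 genes at 7 or more in all 5 groups, 20 (37.7%) were higher and 6 (11.3%) lower, 26 in all (49.1%). Of the 7551 genes that reached 7 in every group 46.5% were called, 23.6% higher and 22.8% lower. By any name 9285 genes met the level rule of 7 in 1 or more groups, and 50.6% of them were called, 25.9% higher and 24.7% lower. Of the 44 others of the 97, 28 (63.6%) were higher and 6 (13.6%) lower. No share was computed separately for genes of any name that met 7 in only some groups. With CP70 replicate 2 as the only CP70 array 35 were called, 28 higher and 7 lower, and leaving out any single array gave 55 to 67.

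DLGAP1-AS3 had the largest difference. It read 4.15, 4.08 and 4.18 on the A2780 arrays and 8.57, 8.24 and 8.62 on the CP70 arrays, a difference of 4.34 ± 0.18 (20.2-fold, adjusted p = 4.52e-11). The A2780 values lie at the low end of the scale, where array signal flattens, and the groups are far apart. DLGAP1, the gene it is named after, encodes a scaffold protein of the postsynaptic density and had no probe set of its own symbol here. DLGAP1-AS1 and DLGAP1-AS2, antisense genes of the same name, were also higher in CP70, by 1.36 ± 0.14 and 1.21 ± 0.23, although DLGAP1-AS2 read 5.83 on CP70 replicate 2 against 6.67 on both other CP70 arrays, and with replicate 2 alone its difference was 0.65 (adjusted p = 0.102).

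3 further genes went from low values in A2780 to high values in CP70. LINC01425 read 5.24, 5.04 and 4.78 in A2780 and 9.65, 8.22 and 9.36 in CP70 (difference 4.06 ± 0.29). PRR34-AS1 read 3.43, 4.42 and 4.06 in A2780 and 7.32, 7.42 and 7.36 in CP70 (3.40 ± 0.17). LINC00326 read 3.77, 3.97 and 4.46 in A2780 and 7.95, 6.48 and 7.43 in CP70 (3.22 ± 0.27). None of the 3 had overlapping arrays, and PRR34-AS1 was the tightest of them within CP70, whereas CP70 replicate 2 was the lowest CP70 array for LINC01425 and LINC00326. With replicate 2 alone the differences of LINC01425 and LINC00326 were 3.20 and 2.41, and both were still called.

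LINC02381 and SOCS2-AS1 went the other way. LINC02381 read 8.60, 8.35 and 8.26 in A2780 and 4.36, 4.35 and 4.43 in CP70, 4.02 lower on the log2 scale with an SE of 0.12 (16.3-fold). It stayed low in every treated group, with means of 4.46 after decitabine, 4.20 after PXD101 and 4.51 after both. SOCS2-AS1 read 6.79, 7.36 and 7.54 in A2780 and 4.54, 3.97 and 4.22 in CP70 (-2.99 ± 0.18), and its means stayed between 3.56 and 3.73 after treatment. Both genes met the level of 7 in A2780 alone.

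LINC01806 (2.62 ± 0.18) and MAGI2-AS3 (2.49 ± 0.18) completed the 8 largest differences. Another probe set of LINC01806 differed by 2.04. Those of MAGI2-AS3, dim at means of 3.98 and 3.47, differed by only 0.39 (limma adjusted p = 0.219) and 0.90 (0.000314). MAGI2-AS3, described in several cancers as an RNA that restrains growth, read 5.74, 5.81 and 6.09 in A2780 and 8.58, 7.84 and 8.67 in CP70. The other 42 genes called higher ranged from 0.42 to 2.45, and the other 10 called lower from -1.75 (ZNF436-AS1) to -0.47. Of the 60 calls, 46 higher and 8 lower held whichever single array was left out. The rank product test, which the submitters name as theirs, called 14 higher and 3 lower at a false positive share under 5%, while it called 5.27% of all genes. At an adjusted p under 0.05 and at least 2-fold, 32 of the 97 genes and 9.75% of all genes were called. The 32 were 6 of the 53 genes at 7 or more throughout and 26 of the 44 others, which the level rule favours. Among genes of any name, 718 of the 7551 at 7 or more throughout passed both limits. So did 1505 of the 9285 that met the level rule.

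**Figure D2:**
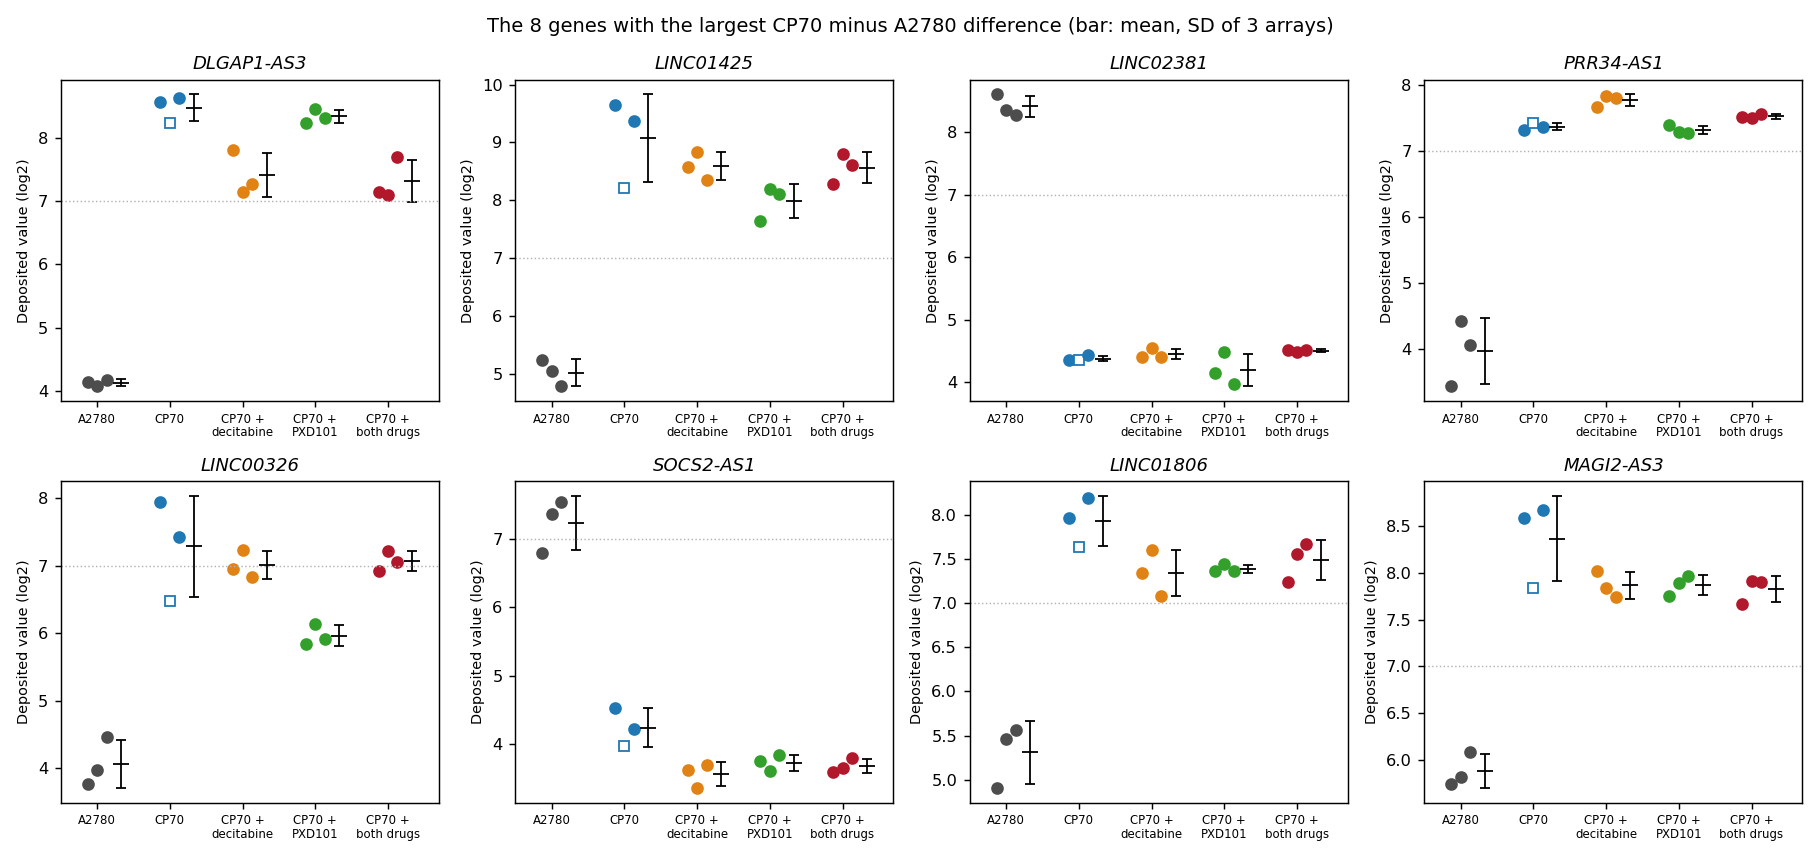
Deposited log2 value (y axis) on every array of the 5 groups (x axis) for the 8 genes with the largest difference between CP70 and A2780; points are arrays, the open square is CP70 replicate 2, black bars are the mean and SD of 3 arrays, and the dotted line is the level of 7. DLGAP1-AS3 lies at 4.08 to 4.18 in A2780 and at 7.10 or more on every CP70 array, and LINC02381 lies at 8.26 to 8.60 in A2780 and at 4.55 or less on every CP70 array.

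The promoters of a gene that appeared in CP70 and of a gene that was lost there are shown because CG dinucleotides, the sites of DNA methylation in human cells, can be read from them. The windows run from 250 bases before to 50 bases after the annotated start, 300 bases written 5' to 3' on the gene's strand, from RefSeq on the GRCh38.p14 build, with every CG in capitals. PRR34-AS1 (chr22:46053596-46053895, plus strand) has 24 CG and LINC02381 (chr12:54125821-54126120, plus strand) has 13.
PRR34-AS1: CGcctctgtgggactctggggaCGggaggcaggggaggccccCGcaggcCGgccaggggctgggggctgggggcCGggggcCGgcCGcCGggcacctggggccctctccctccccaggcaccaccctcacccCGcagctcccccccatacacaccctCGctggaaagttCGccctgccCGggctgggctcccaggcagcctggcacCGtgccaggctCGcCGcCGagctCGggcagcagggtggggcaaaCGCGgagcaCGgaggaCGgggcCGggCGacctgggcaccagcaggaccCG
LINC02381: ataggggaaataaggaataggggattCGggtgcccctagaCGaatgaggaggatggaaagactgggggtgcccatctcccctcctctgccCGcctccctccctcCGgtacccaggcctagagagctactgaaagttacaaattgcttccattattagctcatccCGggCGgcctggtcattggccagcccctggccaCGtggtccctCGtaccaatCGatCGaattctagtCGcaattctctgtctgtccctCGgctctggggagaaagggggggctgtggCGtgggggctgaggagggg
DLGAP1-AS3, SOCS2-AS1, LINC01425 and LINC00326 are named only.

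The second comparison asked which of the RNAs differed after decitabine. In CP70 cells given decitabine, 5 genes were higher and 11 lower than in untreated CP70, 16 of 97, while 8.01% of all genes were called, 4.87% higher and 3.14% lower. The median difference was -0.07 over the 97 genes and 0.02 over all genes. Of the 53 genes at 7 or more in every group, 2 (3.77%) were higher and 5 (9.43%) lower. Of all genes at that level 9.05% were called, 4.24% higher and 4.81% lower. Among the 9285 genes of any name that met the level rule 11.5% were called, 6.24% higher and 5.28% lower, beside 16.5% of the 97. CKMT2-AS1, ILRUN-AS1, RFX5-AS1 and WARS2-AS1 are in the set through untreated CP70 alone, so their lower values after decitabine follow in part from the rule, as do the higher values of MBNL1-AS1 and RALY-AS1, which met 7 in every treated group and not in untreated CP70. Centring each array on its median, which moved the median of all genes by -0.12 in this comparison, gave 4 higher and 21 lower. By rank product 1 was higher and 3 were lower, beside 1.84% of all genes, and 3 genes against 1.74% of all genes were called and at least 2-fold.

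The clearest rise was that of FAM131B-AS2. It read 7.28, 7.48 and 7.57 on the untreated CP70 arrays and 8.46, 8.65 and 8.64 after decitabine, a difference of 1.14 ± 0.14 (2.20-fold, adjusted p = 0.000121). PXD101 alone left it at 7.42, 7.46 and 7.53, and with both drugs it read 8.59, 9.01 and 8.66. All 6 arrays with decitabine lay above all 9 without it, A2780 included (7.08, 7.38 and 7.65). With CP70 replicate 2 as the only CP70 array the difference was 1.11 (adjusted p = 0.0061). A second probe set of the gene rose by 0.63 (adjusted p = 0.00357), and another, dim one differed by 0.36 (adjusted p = 0.306).

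LINC01503, described in squamous cell carcinomas as an RNA driven by a super-enhancer, was already higher in CP70 (8.45, 8.32 and 8.41) than in A2780 (6.17, 6.40 and 6.35). After decitabine it read 9.05, 9.05 and 8.91, a further 0.61 ± 0.10 (adjusted p = 0.0022), and with CP70 replicate 2 alone the difference was 0.68 (adjusted p = 0.0243). FAM131B-AS2 and LINC01503 were the only genes of the 16 still called when replicate 2 was the only CP70 array. HLA-F-AS1 was called there too (-0.59, adjusted p = 0.045) and not with all 3 arrays.

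ASH1L-AS1, named after a histone methyltransferase gene, read 7.32, 8.09 and 7.44 in untreated CP70 and 8.53, 8.55 and 8.41 after decitabine (0.88 ± 0.21, adjusted p = 0.0168). Its arrays did not overlap, yet CP70 replicate 2 was much the nearest to the treated arrays, and with that array alone the difference was 0.41 (adjusted p = 0.459). The other 3 genes called higher lay between 0.40 and 0.64.

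The largest fall was in DLGAP1-AS3, the gene that had gone from low to high between the lines. It read 7.81, 7.15 and 7.27 after decitabine (-1.07 ± 0.18, adjusted p = 0.00161), below every untreated CP70 array and far above A2780. OIP5-AS1, a conserved and abundant RNA also known as cyrano that binds the microRNA miR-7, read 11.06, 10.30 and 10.90 in untreated CP70 and 9.99, 9.93 and 9.48 after decitabine (-0.96 ± 0.18, adjusted p = 0.00488). Another probe set of OIP5-AS1 fell by 0.91 (adjusted p = 0.00638) and one differed by -0.52 (adjusted p = 0.0712). Neither gene was called with CP70 replicate 2 alone, where DLGAP1-AS3 differed by -0.83 (adjusted p = 0.0803) and OIP5-AS1 by -0.50 (adjusted p = 0.227).

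CKMT2-AS1 shows how far CP70 replicate 2 lay from the other CP70 arrays. It read 7.49 and 7.43 on CP70 replicates 1 and 3 and 6.61 on replicate 2. It read 6.19, 6.21 and 6.13 after decitabine, and every array of A2780, of PXD101 and of both drugs lay at 6.38 or less. The difference after decitabine was -1.0 ± 0.18 (adjusted p = 0.00309) with 3 CP70 arrays and -0.43 (adjusted p = 0.145) with replicate 2 alone. NUTM2B-AS1 (-0.78 ± 0.15), ILRUN-AS1 (-0.74 ± 0.16) and WARS2-AS1 (-0.70 ± 0.15) had the same arrangement, with CP70 replicate 2 between the other CP70 arrays and the treated ones. The remaining 5 genes called lower lay between -0.70 and -0.34. SOCS2-AS1 was 1 of them (-0.68), from a mean of 4.24 to 3.56. Both means lie under the lower quartile of all gene values, 4.34, at the low end of the scale. There were 7 calls without CP70 replicate 1, 8 without replicate 3 and 40 without replicate 2, and 10 without decitabine replicate 1, while leaving out decitabine replicate 2 or 3 gave 11. In every such fit 7 of the 16 were called: FAM131B-AS2, LINC01503, DLGAP1-AS3, OIP5-AS1, CKMT2-AS1, NUTM2B-AS1 and ILRUN-AS1. Second, dimmer probe sets did not show the falls of CKMT2-AS1 (-0.01, limma adjusted p = 0.986), NUTM2B-AS1 (-0.03, 0.931) and WARS2-AS1 (-0.06, 0.799). Their means over the arrays were 4.96, 3.24 and 2.91.

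**Figure D3:**
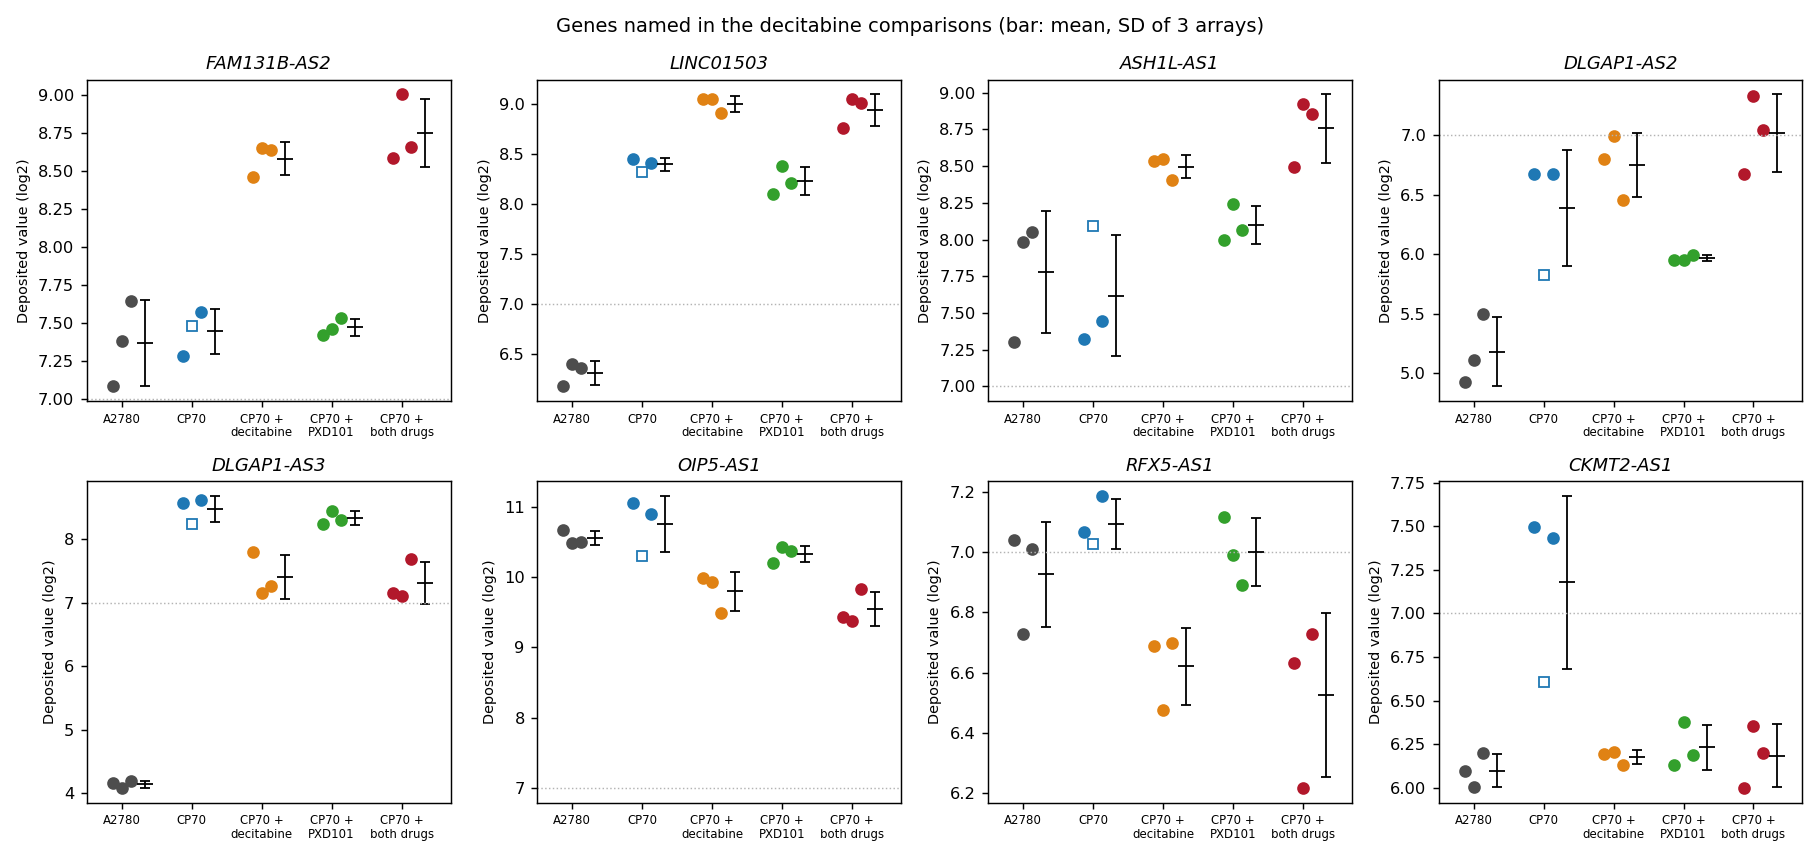
Deposited log2 value (y axis) on every array of the 5 groups (x axis) for 8 genes of the decitabine comparisons; points are arrays, the open square is CP70 replicate 2, black bars are the mean and SD of 3 arrays, and the dotted line is the level of 7 where it falls in range. FAM131B-AS2 lies at 8.46 or more on the 6 arrays with decitabine and at 7.65 or less on the others, and CP70 replicate 2 of CKMT2-AS1 lies at 6.61, below 7.43 and 7.49.

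A test of decitabine that uses none of the untreated CP70 arrays is the combination set against PXD101 alone, which shares no array with the comparison above, although PXD101 was given for 24 h in the one and 48 h in the other. There, 10 genes were higher and 4 lower, 14 of 97, while 9.94% of all genes were called, 5.91% higher and 4.03% lower. Of the 53 genes at 7 or more throughout 3 (5.66%) were called, beside 11.7% of the genes at that level. In all, 4 genes were called and at least 2-fold, beside 2.39% of all genes. FAM131B-AS2 differed by 1.28 ± 0.14 (adjusted p = 3.11e-05), DLGAP1-AS3 by -1.02 ± 0.18 (adjusted p = 0.00161), OIP5-AS1 by -0.79 ± 0.18 (adjusted p = 0.0133), LINC01503 by 0.71 ± 0.10 (adjusted p = 0.000432) and RFX5-AS1 by -0.47 ± 0.13 (adjusted p = 0.0343). These 5 were called in the same direction in both comparisons, 31.2% of the 16 and 35.7% of the 14. Over all genes the 732 shared calls were 46.2% and 37.3% of the lists. All 16 genes called after decitabine alone had the same sign here, as did 1386 of the 1583 genes called over the whole array. The other 2 probe sets of OIP5-AS1 differed by -0.49 (adjusted p = 0.107) and by -0.00 (adjusted p = 0.992) in this comparison.

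RFX5-AS1 read 7.07, 7.03 and 7.19 in untreated CP70 and 6.69, 6.47 and 6.70 after decitabine, and 7.12, 6.99 and 6.89 after PXD101 and 6.63, 6.22 and 6.73 after both drugs. The 6 arrays with decitabine all lay below the 6 CP70 arrays without it. The shift was small, -0.47 ± 0.13 in each comparison, and its call after decitabine alone was lost when any 1 of 5 arrays was left out. Genes called in the combination against PXD101 and not after decitabine alone included LINC00326 (1.10 ± 0.27), which read 5.84, 6.14 and 5.91 after PXD101 and 6.92, 7.22 and 7.05 after both drugs, and DLGAP1-AS2 (1.05 ± 0.23), at 5.95, 5.95 and 5.99 against 6.67, 7.33 and 7.05. The rule leans towards both of these rises. DLGAP1-AS2 is in the set through the both-drugs group alone, LINC00326 and ST20-AS1 met 7 with both drugs and not after PXD101, and LINC00294, called lower, met it after PXD101 and not with both drugs. DLGAP1-AS1 differed by 0.35 ± 0.14 (adjusted p = 0.132). The other 7 genes called higher lay between 0.43 and 0.72. There were 4 calls without replicate 2 of both drugs, 8 without replicate 3 of both drugs, 7 without PXD101 replicate 1, 6 without PXD101 replicate 3, and 11 or 17 without either remaining array.

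**Figure D4:**
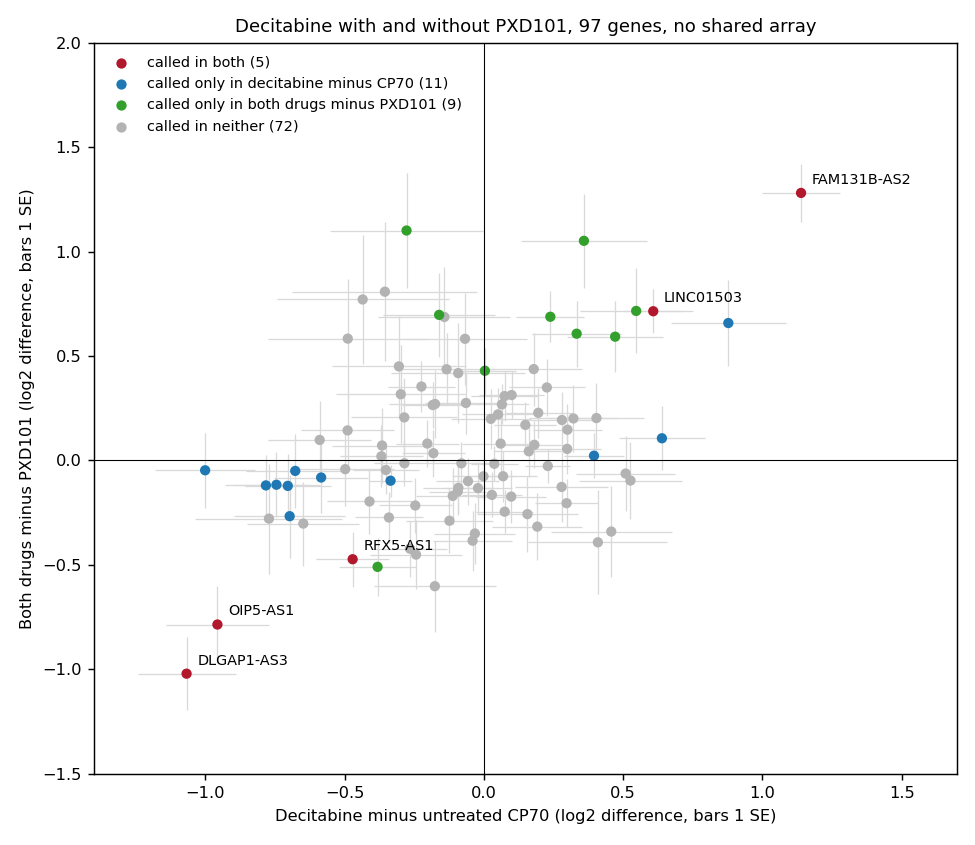
Difference after decitabine in CP70 (x axis) against the difference between both drugs and PXD101 alone (y axis), in log2 units with bars of 1 SE, for the 97 genes; the axes share no array. FAM131B-AS2 lies alone at the upper right (1.14 and 1.28) and DLGAP1-AS3 and OIP5-AS1 at the lower left, and the points called in the decitabine comparison alone keep to a band near 0 on the y axis apart from ASH1L-AS1.

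The promoters of 3 of these 5 genes are printed to show how many CG dinucleotides stand around the starts of RNAs that rose or fell with a drug that lowers DNA methylation. FAM131B-AS2 (chr7:143380976-143381275, minus strand) has 24 CG, OIP5-AS1 (chr15:41283740-41284039, plus strand) has 23 and RFX5-AS1 (chr1:151346760-151347059, plus strand) has 17.
FAM131B-AS2: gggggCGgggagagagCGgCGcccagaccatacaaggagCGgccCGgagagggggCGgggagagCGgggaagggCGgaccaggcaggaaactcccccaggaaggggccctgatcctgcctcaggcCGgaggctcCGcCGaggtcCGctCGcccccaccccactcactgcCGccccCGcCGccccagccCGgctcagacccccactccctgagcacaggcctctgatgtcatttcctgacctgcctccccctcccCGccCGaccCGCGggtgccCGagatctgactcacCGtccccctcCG
OIP5-AS1: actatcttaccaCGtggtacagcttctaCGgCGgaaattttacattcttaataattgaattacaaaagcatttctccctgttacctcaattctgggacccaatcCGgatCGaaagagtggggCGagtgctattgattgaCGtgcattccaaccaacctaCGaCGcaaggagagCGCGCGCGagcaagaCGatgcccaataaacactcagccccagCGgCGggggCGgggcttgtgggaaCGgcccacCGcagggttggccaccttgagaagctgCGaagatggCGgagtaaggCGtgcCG
RFX5-AS1: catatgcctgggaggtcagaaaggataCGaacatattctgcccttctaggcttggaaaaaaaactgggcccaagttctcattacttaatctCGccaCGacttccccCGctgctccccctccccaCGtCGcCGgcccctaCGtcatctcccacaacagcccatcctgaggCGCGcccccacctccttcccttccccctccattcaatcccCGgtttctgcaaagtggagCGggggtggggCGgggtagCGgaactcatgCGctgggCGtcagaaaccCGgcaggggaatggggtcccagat
LINC01503 is named only, as is DLGAP1-AS3.

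The motif CG reads the same on both strands, and 10 or more of it stood in 56.0% of all 27305 promoter windows of RefSeq. Among the 97 genes 77 had a window, with a median of 23 CG and a range of 1 to 54, and 76.6% held 10 or more. All LINC and antisense genes with a window, 1168 of them, had a median of 7, and 7776 genes of any kind at 7 or more in some group had a median of 27. The 3 genes higher after decitabine that had a window held a median of 24 CG, the 8 lower ones 23 and the 66 not called 23.5. Methylation itself was not measured, and a CG count says only how many such letters the window holds.

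The genes were next set beside their neighbours. Of the 77 genes with a window, 45 (8 of them LINC genes) had the start of another gene on the opposite strand within 1000 bases, and 37 of those neighbours were measured. FAM131B-AS2 starts 320 bases from ZYX, which encodes zyxin, an actin-binding protein of focal adhesions, and ZYX rose with it. ZYX read 7.54, 8.30 and 7.71 in untreated CP70, 8.76, 8.86 and 9.42 after decitabine, 8.33, 8.01 and 7.95 after PXD101 and 9.18, 9.32 and 8.90 after both drugs. Its differences were 1.16 ± 0.21 (adjusted p = 0.00312) after decitabine and 1.04 ± 0.21 (adjusted p = 0.00535) between both drugs and PXD101, and every array with decitabine lay above every array without it. With CP70 replicate 2 alone the first difference was 0.71 (adjusted p = 0.159). FAM131B itself read at the low end of the scale, 4.27 in untreated CP70 and 4.33 after decitabine, a difference of 0.06 ± 0.11.

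After decitabine 7 of the 37 genes (18.9%) and 2 of their neighbours (5.41%) were called, beside 8.01% of all genes. Both neighbours, ZYX and WARS2, changed in the direction of their antisense gene, and with CP70 replicate 2 as the only CP70 array 1 gene and no neighbour were called. WARS2, the mitochondrial tryptophanyl-tRNA synthetase, fell by 0.35 with an SE of 0.10 (adjusted p = 0.0387) beside a difference of -0.70 in WARS2-AS1, whose start is 276 bases away. Between both drugs and PXD101, 3 genes (8.11%) and 4 neighbours (10.8%) were called, beside 9.94% of all genes, and the 2 pairs called together were FAM131B-AS2 with ZYX and RFX5-AS1 with RFX5. RFX5, a transcription factor of the major histocompatibility complex class II genes, differed by -0.62 ± 0.18 (adjusted p = 0.0439) in that comparison and by 0.24 ± 0.18 (adjusted p = 0.478) after decitabine alone. CKMT2-AS1 starts 18 bases from ZCCHC9, whose difference after decitabine was -0.21 ± 0.10 (adjusted p = 0.191). Between the lines 7 pairs were called together, 4 in the same direction and 3 in opposite directions. After PXD101 the count was 0, and after both drugs 1. Without CP70 replicate 2, 4 pairs were called together after decitabine, 3 in the same direction and 1 in the opposite. In that fit a neighbour was called beside 22.2% of the called genes and beside 36.8% of the others.

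By name, 58 of the 66 antisense genes had a sense partner that the arrays measured. Between the lines, 35 of the 58 antisense genes (60.3%) and 22 partners (37.9%) were called, beside 31.2% of all genes. With all 3 CP70 arrays a partner was called in 13 of the 35 pairs with a called antisense gene (37.1%) and in 9 of the 23 others (39.1%). Without CP70 replicate 2 these shares were 53.8% and 42.1%, so the order of the 2 shares differed between these fits. Of the 13 pairs, 10 were in the same direction and 3 in opposite directions, and 38 of the 58 had the same sign. Pairs called together numbered 5, all in the same direction, with CP70 replicate 2 as the only CP70 array, and 21 without it, 14 in the same direction and 7 in opposite ones. The differences of antisense gene and partner correlated at 0.54 across the 58 pairs, a description across genes that share their arrays and, in part, their locus. An array without a strand-specific label could also read both RNAs where they overlap, and that was not tested.

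SOCS2, a suppressor of cytokine receptor signalling, fell by 2.89 with an SE of 0.14 from a mean of 12.05 in A2780 to 9.16 in CP70 beside a difference of -2.99 in SOCS2-AS1. EPB41L4A, a member of the band 4.1 family that links the membrane to the cytoskeleton, rose by 3.37, from 3.61, 3.90 and 3.65 to 6.93, 7.20 and 7.13. EPB41L4A-AS1 rose by 1.90 ± 0.26, from 10.58, 11.08 and 11.40 in A2780 to 13.17, 12.38 and 13.23 in CP70. ATP2B1, a calcium pump of the plasma membrane, rose by 2.04 beside 2.45 in ATP2B1-AS1, and the starts of the pair lie 411 bases apart. JMJD1C, a jumonji-domain protein, rose by 1.23 beside 2.13 in JMJD1C-AS1, and NR2F1, an orphan nuclear receptor, fell by 0.87 beside -0.86 in NR2F1-AS1. With CP70 replicate 2 alone SOCS2 differed by -2.70, EPB41L4A by 3.48, ATP2B1 by 1.81 and NR2F1 by -0.997, all 4 still called with their antisense genes, whereas JMJD1C differed by 0.43 (adjusted p = 0.424).

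The 3 pairs in opposite directions were ELOA-AS1, ZNF407-AS1 and MBNL1-AS1 with their partners. ELOA-AS1 rose by 0.95 while ELOA, the transcription elongation factor elongin A, differed by -0.89. ZNF407-AS1 rose by 0.92 while ZNF407, whose start is 35 bases away, differed by -0.32. MBNL1-AS1 differed by -0.47 while MBNL1, a regulator of splicing, rose by 0.84. In none of the 3 pairs were both called with CP70 replicate 2 alone. PRR34 differed by 0.14 beside 3.40 in PRR34-AS1 and was not called. After decitabine 12 antisense genes (20.7%), 2 partners (3.45%) and 1 pair (WARS2) were called, beside 8.01% of all genes. The counts were 11, 4 and 0 after PXD101 and 12, 4 and 0 after both drugs, and 4 partners are 6.90% of 58, beside 10.7% and 10.4% of all genes. OIP5, which encodes a protein of centromere assembly, differed by 0.05 after decitabine beside -0.96 in OIP5-AS1.

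**Figure D5:**
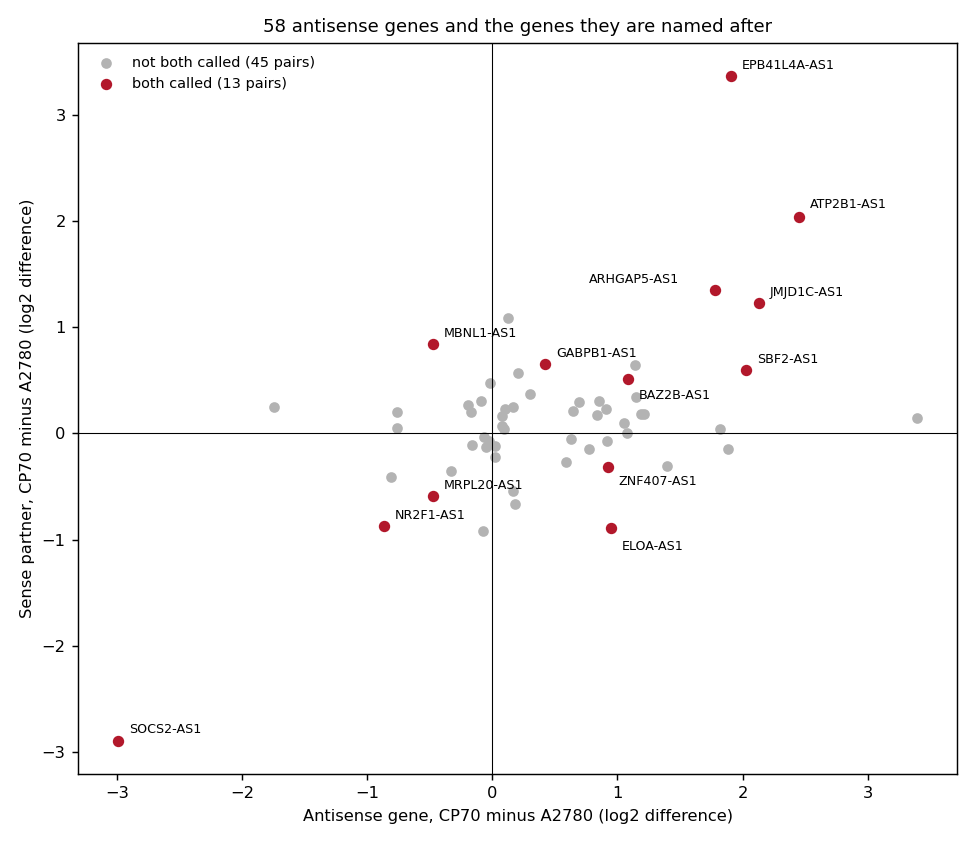
Difference between CP70 and A2780, in log2 units, of 58 antisense genes (x axis) and of the genes they are named after (y axis); red marks the 13 pairs in which both were called. SOCS2-AS1 at the lower left and EPB41L4A-AS1 and ATP2B1-AS1 at the upper right lie with their partners, while MBNL1-AS1, ELOA-AS1 and ZNF407-AS1 lie in the opposite quadrants.

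The third comparison set PXD101 alone against untreated CP70. Of the 97 genes 5 were higher and 12 lower, 17 in all, while 10.7% of all genes were called, 5.57% higher and 5.15% lower. Of the 53 genes at 7 or more throughout 7 (13.2%) were called, beside 18.7% of the genes at that level. Among the 9285 genes of any name that met the level rule 19.4% were called, beside 17.5% of the 97. The 17 calls rest on CP70 replicates 1 and 3. With replicate 2 as the only CP70 array 0 genes were called by limma, all 17 had an adjusted p of 1.0 and 6 of the 97 had an unadjusted p under 0.05, whereas without replicate 2 there were 49 calls. Leaving out CP70 replicate 1 or 3 or any 1 PXD101 array also gave 0 calls by limma, with 27 to 43 of the 97 at an unadjusted p under 0.05 and the lowest adjusted p at 0.062 to 0.133. By rank product 3 were lower and 0 higher, beside 1.80% of all genes, and 3 genes beside 1.91% of all genes were called and at least 2-fold. Centring the arrays on their medians gave 4 higher and 19 lower. The counts from centring and from fits with fewer arrays have no share of all genes beside them. The level rule leans towards some of the falls. LINC00326, BAZ2B-AS1, LINC02693 and ST20-AS1 met 7 in the other 3 CP70 groups and not after PXD101, ELOA-AS1 in untreated CP70 and after decitabine, and CKMT2-AS1 and ILRUN-AS1 in untreated CP70 alone. MBNL1-AS1, called higher, met it after PXD101 and not in untreated CP70.

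LINC00326 differed most, from 7.95, 6.48 and 7.43 in untreated CP70 to 5.84, 6.14 and 5.91 (-1.32 ± 0.27, adjusted p = 0.0218). With replicate 2 alone the difference was -0.51. LINC00662 read 9.66, 8.18 and 9.52 in untreated CP70 and 7.52, 8.37 and 8.07 after PXD101 (-1.13 ± 0.33, adjusted p = 0.044), so that CP70 replicate 2 lay inside the range of the PXD101 arrays. LINC01425 went from 9.65, 8.22 and 9.36 to 7.65, 8.20 and 8.10 (-1.09 ± 0.29, adjusted p = 0.032). In all 3 genes, replicate 2 was the lowest CP70 array and lay nearer the treated arrays than the other CP70 arrays did.

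Among the 5 higher genes, LINC00839 read 7.31, 8.47 and 7.62 in untreated CP70 and 8.78, 8.77 and 8.75 after PXD101 (0.97 ± 0.22, adjusted p = 0.0233), and CCDC144NL-AS1 read 7.66, 8.69 and 7.91 against 8.84, 8.76 and 8.93 (0.75 ± 0.19, adjusted p = 0.0276). Again replicate 2 lay next to the treated arrays, with differences of 0.30 and 0.15 from it alone. CCDC144NL-AS1 is uncertain for a second reason, since its other probe sets went the other way, by -0.53, -0.74 and -0.79, and between the lines 2 of them were higher by 1.02 and 1.03 where the brightest was lower by 0.66. CKMT2-AS1 (-0.95 ± 0.18), ILRUN-AS1 (-0.79 ± 0.16) and NUTM2B-AS1 (-0.67 ± 0.15) repeated the arrangement given above.

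With both drugs, 6 genes were higher and 10 lower than in untreated CP70, 16 of 97, while 10.4% of all genes were called, 6.17% higher and 4.22% lower. Of the 53 genes at 7 or more throughout 8 (15.1%) were called, beside 13.2% of the genes at that level. Among the 9285 genes of any name that met the level rule 15.7% were called, beside 16.5% of the 97. By rank product 2 were higher and 4 lower, beside 2.24% of all genes, and 4 genes beside 2.11% of all genes were called and at least 2-fold. Centring on array medians, which moved the median of all genes by -0.10, gave 5 higher and 22 lower. The rule leans here too towards the falls of CKMT2-AS1, ILRUN-AS1, RFX5-AS1 and EPHA5-AS1, which met 7 in untreated CP70 and not with both drugs, and towards the rises of MBNL1-AS1 and RALY-AS1. This comparison shares its untreated arrays with the comparisons of each drug alone, so the values stand side by side. FAM131B-AS2 differed by 1.31 ± 0.14 (1.14 after decitabine alone, 0.03 after PXD101 alone), ASH1L-AS1 by 1.14 ± 0.21, OIP5-AS1 by -1.21 ± 0.18 (-0.96 and -0.42) and DLGAP1-AS3 by -1.16 ± 0.18 (-1.07 and -0.14). With CP70 replicate 2 alone FAM131B-AS2, LINC01503, DLGAP1-AS3, HLA-F-AS1 and DLGAP1-AS2 were called, the last not being called with all 3 arrays.

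EPHA5-AS1, named after an ephrin receptor gene, read 8.11, 7.17 and 8.07 in untreated CP70 and 6.81, 6.97 and 7.14 with both drugs (-0.81 ± 0.20, adjusted p = 0.0186). EPB41L4A-AS1 read 11.66, 12.11 and 12.38 with both drugs (-0.87 ± 0.26, adjusted p = 0.0485), overlapping CP70 replicate 2 at 12.38. With replicate 2 alone the differences were -0.20 and -0.33, and neither was called. There were 9 calls without CP70 replicate 3 or without replicate 2 of both drugs, 41 without CP70 replicate 2, and 11 to 14 without any other single array.

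Adding PXD101 to decitabine changed none of the 97 genes past the threshold. By limma 0 were called, 0.0101% of all genes were, and 0 of the 97 had an unadjusted p under 0.05, while 929 of 19775 genes (4.7%) did. The differences lay between -0.27 and 0.28, and the 95% intervals between -0.74 and 0.94, so that every interval excluded a change of 2-fold in either direction. FAM131B-AS2 was at 8.58 ± 0.11 (SD, n = 3) with decitabine and 8.75 ± 0.22 (SD, n = 3) with both drugs, DLGAP1-AS3 at 7.41 ± 0.35 and 7.31 ± 0.33, and OIP5-AS1 at 9.80 ± 0.27 and 9.55 ± 0.25. Whether decitabine acted differently with and without PXD101 was tested as an interaction. PXD101 was given for 24 h in the combination and 48 h alone, so that an interaction and the exposure time cannot be told apart. By limma 0 of the 97 genes were called, beside 0.0152% of all genes, and 31 (32.0%) had an unadjusted p under 0.05, beside 18.1% of all genes. These were 10 of the 53 genes at 7 or more throughout and 21 of the 44 others. Among genes of any name, 2031 of the 7551 at 7 or more throughout had such a p. So did 2579 of the 9285 that met the level rule. The result for the interaction turned on CP70 replicate 2. Without that array 39 of the 97 genes were called, 28 higher and 11 lower, beside 20.5% of all genes. With it as the only CP70 array 0 of the 97 were called by limma and 1 had an unadjusted p under 0.05 (1.03%, beside 4.93% of all genes), and without CP70 replicate 1 or 3 the count was 0, with 14 and 16 at an unadjusted p under 0.05.

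The genes also differed in how much they varied. The range of group means was under 0.5 in 26 genes, 1 or more in 37 and 2 or more in 12. In 27 genes no comparison gave a call, and in 31 the call was between the lines alone. The 6 brightest probe sets belonged to EPB41L4A-AS1, FGD5-AS1, OIP5-AS1, LINC00621, LINC00623 and WAC-AS1, an order that depends on the probes as much as on the RNA. In the whole set, 8 genes were read on a probe set whose name ends in _x_at, among them LINC00621, LINC00623 and WAC-AS1. Another 11 genes, FAM131B-AS2 and SOCS2-AS1 among them, were read on a probe set ending in _s_at. Whether such probe sets also read other RNAs was not tested. FGD5-AS1, a widely expressed RNA, had group means of 10.15 to 10.37 and WAC-AS1 of 9.54 to 9.72, and neither was called in any comparison. LINC00623 was not called either, at 10.43, 9.58 and 10.43 in untreated CP70 and 9.47 ± 0.29 (SD, n = 3) after PXD101. LINC00621 was higher in CP70 (10.22 ± 0.05, SD, n = 3) than in A2780 (9.39 ± 0.03) by 0.82 ± 0.08 and fell by 0.34 after decitabine, with 9.91, 9.84 and 9.89 against 10.22, 10.27 and 10.16, a difference lost to an adjusted p of 0.0521 without CP70 replicate 1.

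The median SD of the 97 genes was 0.23 in untreated CP70 and 0.12 to 0.15 in the other groups, and the widest single spread was that of LINC00662 in untreated CP70 (SD 0.82, n = 3). Of the 97 genes 49 had further probe sets. Between the lines these gave 54 values for 28 called genes, of which 35 had the same sign, 16 were called in the same direction and 3 were called in the opposite one: both of CCDC144NL-AS1 and a dim probe set of LINC01128 (-0.81 against 0.62). After PXD101 7 called genes had 14 other probe sets, of which 8 had the same sign and 0 were called by limma in either direction. After decitabine 8 of 9 had the same sign and 2 were called, after both drugs 11 of 13 and 2, and between both drugs and PXD101 7 of 7 and 2.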

How the data were processed

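Total RNA was extracted, amplified and hybridised to 1-colour arrays, per the labels' protocols, and the authors deposited a table of log2 values of 54675 probe sets on 15 arrays. R 2.10.1 and affy are named in the submitters' processing notes. Neither background correction nor normalization is given in the sources used here; values were used as deposited. Probe sets were named from the platform annotation: 41097 have 1 symbol, 1801 several and 11777 none, and those with several or none were left out, with 62 control probe sets. Where a gene had several, the brightest by its mean over 15 arrays was kept.

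Group means were fitted to all 15 arrays with limma 3.58.1 (lmFit, eBayes) in R 4.3.3, with Benjamini-Hochberg adjustment over 19775 genes, and the fit was tested on simulated data. A rank product on 9 pairwise array differences with 100 permutations stood in for the test the submitters name. The array number alone limits the precision, since no depth applies, and p-values measure the spread between 3 arrays a group. Sense partners were found by symbol, neighbours by opposite-strand starts within 1000 bases in RefSeq, and promoter windows by symbol, for 77 of 97 genes. Files name no genome build, and printed coordinates are RefSeq's.

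The members, lists and tests were chosen with earlier results of these data known. Genes named with all values were, by rule, the 6 brightest, up to 8 called genes of the largest difference against each untreated line, up to 4 in each comparison of both drugs with 1 drug, and those called with decitabine in both comparisons that share no array, 27 in all; others named stand out by position, by a conflict between probe sets or by a count of 5 or fewer and were chosen after their values were seen. Replicate numbers do not pair the arrays: deviations of arrays with the same number correlated at -0.38 to 0.49. The alternatives were other fits, filters, scalings, levels, probe sets, array weights and single arrays left out.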

Additional observations from a re-analysis of the deposited data

How the results depend on the processing

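Counts of the 97 genes called depended on the untreated CP70 arrays and on the test. Leaving out 1 array at a time gave 55 to 67 calls between the lines, 7 to 40 after decitabine, 0 to 49 after PXD101, 9 to 41 after both drugs, 4 to 17 between both drugs and PXD101, and 0 to 0 between both drugs and decitabine. With CP70 replicate 2 as the only CP70 array the counts were 35 between the lines, 3 after decitabine, 0 after PXD101 and 5 after both drugs. Fitting only the arrays compared gave 3 after decitabine, 0 after PXD101 (34 at an unadjusted p under 0.05) and 6 after both drugs. Array weights, which gave CP70 replicate 2 a weight of 0.158 and replicate 3 one of 5.127, raised the counts to 50 after decitabine, 59 after PXD101, 53 after both drugs and 38 between both drugs and PXD101. For the interaction of the drugs, where other CP70 arrays were tried after seeing the data, leaving out 1 CP70 array gave 0 to 39 calls in place of 0. The replicate block gave 9 after PXD101 in place of 17, with 60, 13, 13 and 13 in the other comparisons that had calls; the numbers do not pair the arrays. Limma over the genes above the median level gave 28 after PXD101. Centring on array medians gave 25 after decitabine and 27 after both drugs. Asking for at least 2-fold gave 32 between the lines, 3 after decitabine, 3 after PXD101, 4 after both drugs and 4 between both drugs and PXD101. Rank product gave 17 between the lines, 4 after decitabine, 3 after PXD101 and 6 after both drugs. A level of 6 in place of 7 gave more genes and 96, 28, 29, 28 and 27 calls in the 5 comparisons, and a level of 8 gave 31, 8, 6, 8 and 9. Apart from the levels, where the number of genes itself differs, the cause of these changes was not tested. Shares of all genes were given above for rank product, the 2-fold limit and the interaction. For rank product, and for the 2-fold limit in the drug comparisons, those shares were not matched to the level rule. The other alternative counts have no share beside them, so they do not single out these genes.

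Of 844 alternative values for 58 pairs of a named gene and a comparison in which it was called, 648 kept direction and call, 182 kept direction alone and 14 changed sign. The sign changes all came from other probe sets or their mean. Between the lines these were NUTM2B-AS1 (-0.10), WARS2-AS1 (-0.026), LINC00662 (-0.051) and CCDC144NL-AS1 (1.02 and 1.03, and 0.24 for the mean). After PXD101 these were NUTM2B-AS1 (0.089), LINC00662 (0.11), LINC00839 (-0.11) and CCDC144NL-AS1 (-0.53, -0.74 and -0.79, and -0.33 for the mean), and after both drugs CCDC144NL-AS1 (-0.0095). The mean of all probe sets and a repeated quantile normalization kept every count within 1.5 times the main one.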

Other observations

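Long non-coding genes with names of their own were read from a separate list, of which 29 of 39 were measured. CRNDE, an RNA raised in many cancers, was among the largest differences of any such gene between the lines. It read 4.06, 3.74 and 4.39 in A2780 and 9.20, 6.44 and 8.97 in CP70 (4.14 ± 0.51, adjusted p = 1.42e-05 by limma). It read 5.05, 5.07 and 5.31 after PXD101, 8.15, 8.38 and 7.54 after decitabine and 7.60, 8.23 and 8.04 after both drugs, so that the PXD101 arrays lay below every other CP70 array. PXD101 differed from untreated CP70 by -3.06 (adjusted p = 0.0205) and by -1.30 with CP70 replicate 2 as the only CP70 array (adjusted p = 0.967), while both drugs differed from PXD101 by 2.81 (adjusted p = 0.00228), a comparison that uses no untreated array. In all, 3 genes of the list were higher and 5 lower in CP70 than in A2780, 27.6% of the 29 beside 31.2% of all genes. The lower ones included DUBR (-2.07), TUG1 (-1.32) and RMST (-1.66), which differed by -1.26, -1.51 and -1.60 with CP70 replicate 2 as the only CP70 array, all 3 still called.

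Of 21 genes that host small nucleolar RNAs in their introns 8 were measured, with 3 higher and 2 lower in CP70 (62.5%, beside 31.2% of all genes). SNHG32 read 10.95, 11.06 and 11.27 in A2780 and 12.83, 11.61 and 12.78 in CP70 (1.32 ± 0.26). After decitabine it read 11.735, 11.681 and 11.33, all below CP70 replicates 1 and 3. Its means after PXD101 (11.34) and after both drugs (11.40) were also lower than in untreated CP70, with CP70 replicate 2 again nearest to them. With that array alone the difference between the lines was 0.52 (adjusted p = 0.133) and that after PXD101 was -0.27.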
